A study of Mus musculus with 4 samples.

Results

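The liver-enriched transcription factors that define hepatocyte identity were followed in obese mouse liver after nasal dosing with GALP, a hypothalamic neuropeptide related to galanin. The group holds 9 of 26582 gene names on the array, Hnf4a, Foxa1, Foxa2, Foxa3, Cebpa, Cebpb, Onecut1, Nr5a2 and Cux2, chosen by name. All 14 probes that the array annotates with these names were taken, of 41174 probes in all, and every one had a value on all 4 arrays. Of these, 11 probes of 7 genes were well above background on every array, in 1 channel or both, against 15713 probes of the whole array, and these are called probes with signal.

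The mice were male C57BL/6 animals, 8 weeks of age at purchase, that reached a body weight of at least 40 g after 14 weeks of a high-fat diet. All mice were first acclimatized with a nasal drop of saline once a day. They then received a nasal drop of 2 µL once a day for 11 days. The drop was either GALP (1 nmol, in saline with 5% α-cyclodextrin) or saline, so that the control mice were obese on the same diet. Liver RNA formed 3 pools: a greater-loss pool of the 4 mice that lost more weight under GALP, a less-loss pool of the 4 that lost less, and a control pool of 8 mice. The control pool was set against each GALP pool on 2 dual-colour Agilent whole mouse genome arrays, the second with Cy3 and Cy5 swapped. The 4 arrays lay on 1 slide with 43379 spots each, of which 40.5% to 46.7% per channel were well above background and 0 were saturated. The labels attach the weight loss groups to the control channel as well, whereas the methods describe a single control pool, which was treated here as 1 sample. All ratios are log2 of GALP over control, the arrays of a pool carry the same extracts and were averaged, and means are given ± SD between the pools (n = 2). Whole liver was used, so fewer hepatocytes and less RNA per hepatocyte cannot be told apart.

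Hepatocytes hold their differentiated state through a network of transcription factors that bind and activate one another's genes. The forkhead proteins FOXA1, FOXA2 and FOXA3 can open closed chromatin, the nuclear receptors HNF4α and NR5A2 (LRH-1) and the basic leucine zipper proteins C/EBPα and C/EBPβ drive genes of lipoprotein, bile acid, glucose and acute phase metabolism, and the cut-homeodomain proteins ONECUT1 (HNF6) and CUX2 act beside them. CUX2 is best known in mouse liver as a female-enriched regulator that lies downstream of the growth hormone pattern.

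The probes of the array are 60-mers, and the sequences show which stretch of each transcript was read. The genes with more than 1 probe are shown first, since their probes read distant parts of the same transcript and did not always give the same ratio. Probes that lie in coding sequence are printed whole, which holds for Hnf4a probe 3 in the zinc finger region, Cebpa probe 1 and Cebpb probe 1 in the leucine zipper region and Onecut1 in the homeodomain region, and 30 bases are printed of the others. Positions are those that the files give on mm9, without exon or untranslated region annotation. Capitals mark the hexamer AATAAA, the canonical polyadenylation signal, searched on the probe strand alone.
Hnf4a probe 1 (A_51_P198473, chr2:163396065-163396124, + strand, bases 1 to 30 of the probe): ctggactcctctcaagttgaagtcatcgtc
Hnf4a probe 2 (A_52_P683991, chr2:163398074-163398133, + strand, bases 11 to 40 of the probe): cagggaacatggAATAAAggaaagtttact
Hnf4a probe 3 (A_52_P69656, chr2:163378302-163378361, + strand, whole probe): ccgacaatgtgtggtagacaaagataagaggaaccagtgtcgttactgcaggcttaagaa
Cebpa probe 1 (A_51_P214087, chr7:35905361-35905420, + strand, whole probe): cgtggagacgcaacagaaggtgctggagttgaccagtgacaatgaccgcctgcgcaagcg
Cebpa probe 2 (A_52_P168567, chr7:35906517-35906576, + strand, bases 1 to 30 of the probe): ttttgttttggttttgctctgattcttgcc
Cebpb probe 1 (A_52_P605846, chr2:167515309-167515368, + strand, whole probe): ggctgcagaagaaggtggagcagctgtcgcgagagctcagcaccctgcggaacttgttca
Cebpb probe 2 (A_52_P63553, chr2:167515847-167515905, + strand, bases 30 to 59 of the probe): tgaagacattttAATAAActtttttgggag
The genes with a single probe with signal are shown for the ratios that stood farthest from 0 in the group.
Foxa2 (A_51_P222773, chr2:147868698-147868757, - strand, bases 1 to 30 of the probe): ccattctggacatggtgaaatccaggtctc
Foxa3 (A_52_P64707, chr7:19599053-19599112, - strand, bases 1 to 30 of the probe): tgaccttttgagtatgtgacagaacacatc
Onecut1 (A_51_P368894, chr9:74737272-74737331, + strand, whole probe): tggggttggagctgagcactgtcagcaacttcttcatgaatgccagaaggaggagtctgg
Nr5a2 (A_51_P514449, chr1:138740903-138740962, - strand, bases 1 to 30 of the probe): atgcaaagacagtgattctgcatatggcct
The hexamer lies in 2 of the 14 member probes, Hnf4a probe 2 and Cebpb probe 2, and in 4.78% of all probes of the array. The Cebpa probes start 1156 bases apart and the Cebpb probes 538 bases apart. The Hnf4a probes span more of the gene, with 17763 bases between the starts of probe 3 and probe 1 and 2009 bases between those of probe 1 and probe 2. The G and C content of the member probes had a median of 45%, against 40% over the array, and was highest at 60% in the coding probes of Cebpa and Cebpb. The longest run that a member probe shared with a probe of another name on the array was between 12 and 16 bases of 60, on the same strand.

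None of the 14 probes met the rule of the methods, which selects probes with more than 1.5-fold or less than 0.75-fold expression in each GALP pool, provided that every array agrees in direction and has p under 0.01 in the Feature Extraction software. Over the 41037 probes with a value on every array, 0.0585% were called higher and 0.132% lower by this rule. With limma, 0 of the 14 probes and 0% of all probes passed an adjusted p of 0.05, and the lowest value over the array was 0.374. At an unadjusted p under 0.05, limma had 2 of the 14 member probes, Hnf4a probe 1 and Nr5a2, beside 11.6% of all probes. The spread behind this test comes from 2 pools with 1 residual degree of freedom, so a missing call does not show that a gene was unchanged. Of the 11 probes with signal, 3 lay above 0 on all 4 arrays (Foxa2 and 2 of Hnf4a), beside 11.4% of all probes with signal. Nr5a2 was the 1 member probe below 0 on all 4 arrays, beside 15.7% of all probes with signal.

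**Figure D1:**
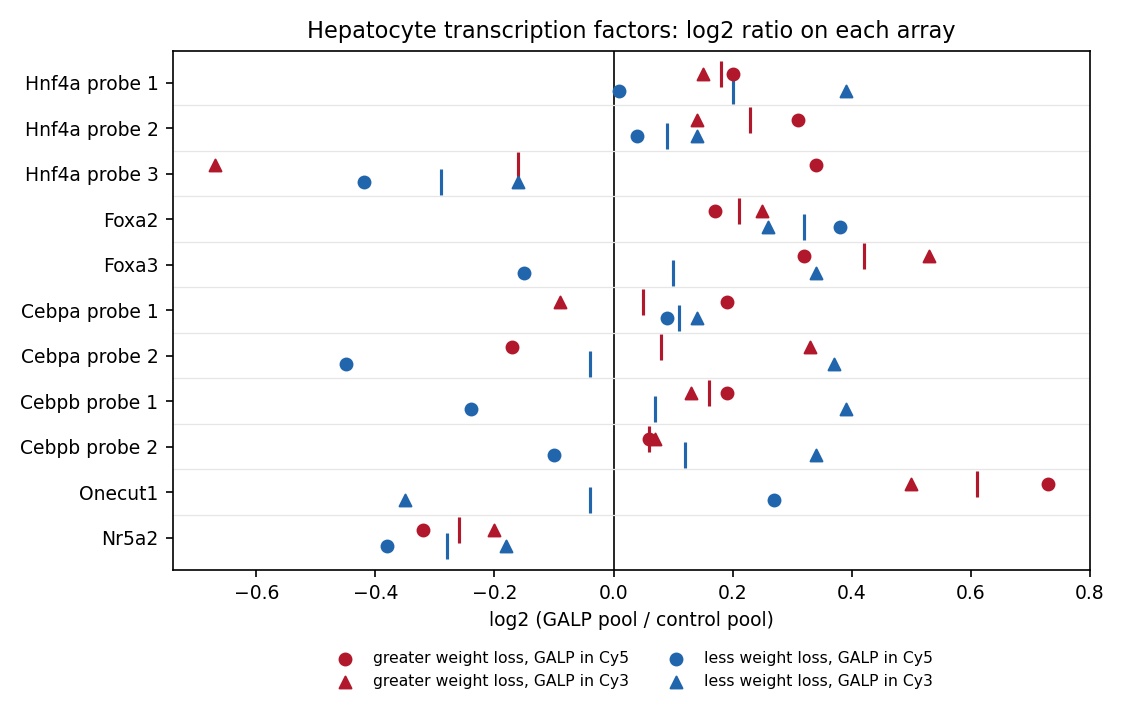
Log2 ratio of GALP over control (horizontal axis) of the 11 member probes with signal. Circles are arrays with GALP in Cy5, triangles arrays with GALP in Cy3, red is the greater-loss pool and blue the less-loss pool, and vertical ticks are the pool means. Foxa2 lay to the right of 0 and Nr5a2 to the left of 0 on all 4 arrays, whereas the circles and triangles of Cebpa probe 2 lay on opposite sides.

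Nr5a2, the nuclear receptor LRH-1 that drives bile acid synthesis and cholesterol transport genes, was the only member with signal whose probes all lay below 0. Its ratios were -0.32 and -0.20 in the greater-loss pool and -0.38 and -0.18 in the less-loss pool, with GALP in Cy5 given first here and below. All 4 values lay on the same side of 0, from -0.38 to -0.18. The processed signal was between 517 and 723 in the GALP channel and between 586 and 903 in the control channel. The mean was -0.27 ± 0.02, a fold of 0.828, and the pools differed by 0.02. With limma the standard error was 0.01 and the adjusted p was 0.374. The SD and this standard error rest on pool means. They leave out the difference between the dye orientations, 0.12 and 0.20 in the greater-loss and less-loss pools (GALP in Cy3 minus GALP in Cy5). The Feature Extraction p-value was between 0.0659 and 0.383, so no single array passed the threshold of the rule. The mean of Nr5a2 lay at the 8.86 percentile of all probes with signal.

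Hnf4a, the nuclear receptor that activates apolipoprotein, clotting factor and drug metabolism genes, was read by 3 probes that did not give the same direction. Probe 2, the brightest and the one that stands for the gene here, gave 0.31 and 0.14 in the greater-loss pool and 0.04 and 0.14 in the less-loss pool. Probe 1 gave 0.20 and 0.15 in the first pool and 0.01 and 0.39 in the second. Both probes lay above 0 on all arrays, by amounts that differed more between arrays than between pools for probe 1. The means were 0.16 ± 0.09 (adjusted p = 0.608 with limma) for probe 2 and 0.19 ± 0.02 (adjusted p = 0.374) for probe 1.

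Hnf4a probe 3, in the coding sequence upstream of the others, went the other way on 3 of 4 arrays. It gave 0.34 and -0.67 in the greater-loss pool and -0.42 and -0.16 in the less-loss pool, a mean of -0.23 ± 0.09 (adjusted p = 0.511 with limma). Its processed signal was between 37 and 78 over the 8 channels, and its dye orientations differed by -1.01 (GALP in Cy3 minus GALP in Cy5) in the greater-loss pool. Averaging the 3 probes moved the Hnf4a ratio from 0.16 to 0.04. The difference between the probes was not tested.

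Among the forkhead factors, Foxa2, which works with glucagon and fasting signals on gluconeogenic and bile acid genes, was the member with the most even ratios above 0. The array carries its probe at 10 spots, and the array means were 0.17 and 0.25 in the greater-loss pool and 0.38 and 0.26 in the less-loss pool. Every spot without an outlier mark, 38 of 38 over the 4 arrays, lay above 0. The spots ranged from 0.10 to 0.22 and from 0.14 to 0.36 in the greater-loss pool, and from 0.36 to 0.42 and from 0.19 to 0.33 in the less-loss pool. Spots of 1 probe on 1 array read the same extracts and are no replicates of the treatment. Their SD of 0.020 to 0.061 covers only the spread within an array and leaves out differences between arrays. The 2 arrays of the less-loss pool, with the same extracts, differed by -0.13 (GALP in Cy3 minus GALP in Cy5). The mean was 0.26 ± 0.08, a fold of 1.20, with a standard error of 0.05 and an adjusted p of 0.451 with limma. The highest fold of a pool was 1.25, below the threshold of the rule, and the median Feature Extraction p-value of its spots was between 0.0649 and 0.425.

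**Figure D2:**
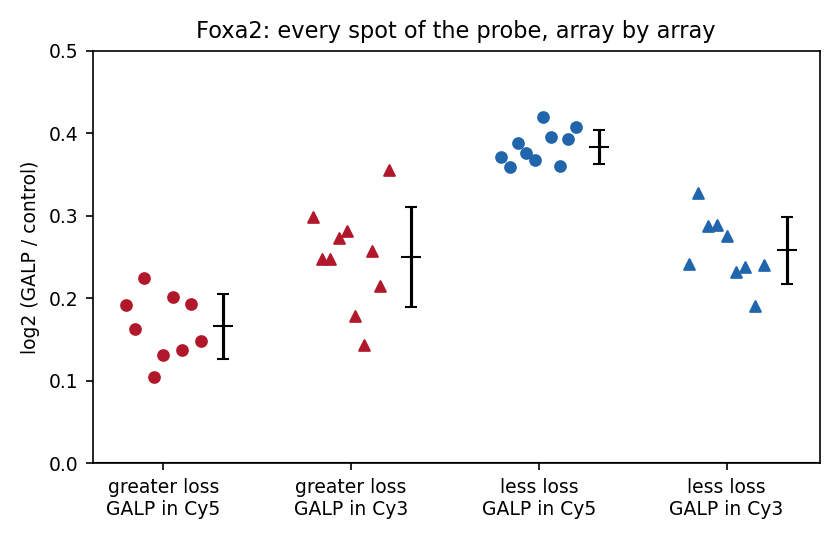
Log2 ratio of GALP over control (vertical axis) of every spot of the Foxa2 probe without an outlier mark, 9 or 10 spots per array. Black bars are the mean and SD over the spots of an array. All spots lay above 0, and those of the array of the less-loss pool with GALP in Cy5 lay highest, from 0.36 to 0.42.

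Foxa3, the forkhead member most abundant in adult liver that contributes to glucose transporter and fasting gene expression, had the same mean with a wider spread. Its ratios were 0.32 and 0.53 in the greater-loss pool and -0.15 and 0.34 in the less-loss pool. The less-loss pool held arrays on both sides of 0. The mean was 0.26 ± 0.23, with a standard error of 0.14 and an adjusted p of 0.702 with limma, and the fold was 1.34 in the first pool and 1.07 in the second. The lowest Feature Extraction p-value of Foxa3 was 0.0113, just above the threshold of the rule. Foxa1, the partner of Foxa2 in liver development, was not well above background in any of the 8 channels. Its processed signal was between 6 and 13, the software set its ratio to 0 on 3 arrays, and no fold is given.

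Cebpa, the basic leucine zipper factor of the quiescent, metabolically active hepatocyte, was read by a bright and a dim probe, and neither gave a ratio away from 0. Cebpa probe 2, with a processed signal between 6691 and 9207, gave -0.17 and 0.33 in the greater-loss pool and -0.45 and 0.37 in the less-loss pool. Its sign followed the dye and not the pool: both arrays with GALP in Cy5 lay below 0 and both with GALP in Cy3 above 0. The orientations differed by 0.51 and 0.81, a mean size at the 92.0 percentile of all probes with signal, and the averaged ratio was 0.02 ± 0.09. Cebpa probe 1, with a processed signal between 151 and 197, gave 0.19 and -0.09 in the first pool and 0.09 and 0.14 in the second, a mean of 0.08 ± 0.04. The adjusted p with limma was 1 for probe 2 and 0.577 for probe 1.

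Cebpb, the family member induced by fasting, inflammation and regeneration, had 2 probes that gave similar ratios. Probe 2, the brighter, gave 0.06 and 0.07 in the greater-loss pool and -0.10 and 0.34 in the less-loss pool. Probe 1 gave 0.19 and 0.13 in the first pool and -0.24 and 0.39 in the second. For both probes the array of the less-loss pool with GALP in Cy5 was the 1 value below 0. The means were 0.09 ± 0.04 (adjusted p = 0.542 with limma) and 0.12 ± 0.06 (adjusted p = 0.569), and a reading from the arrays with GALP in Cy5 alone would turn the sign of probe 2, to -0.02.

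**Figure D3:**
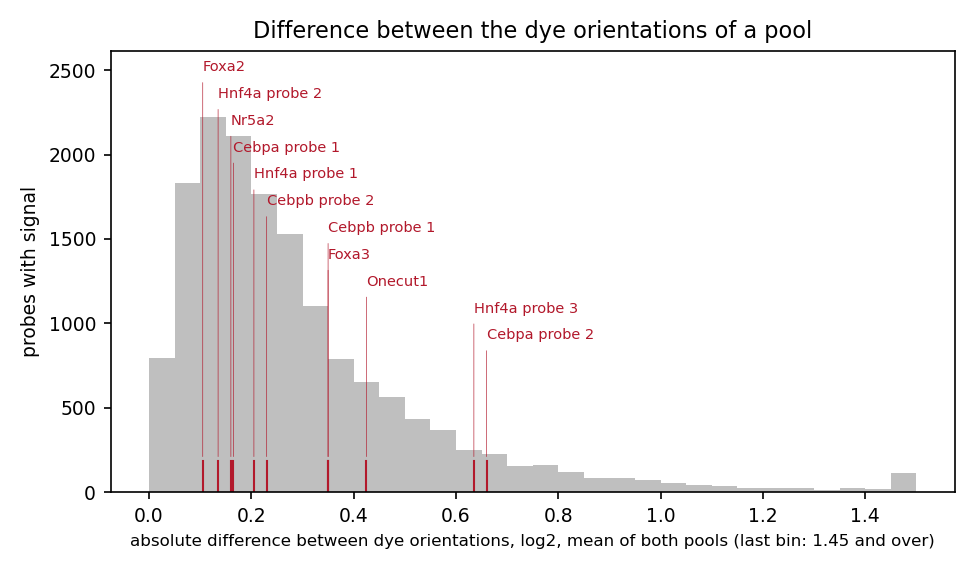
Absolute difference between the dye orientations of a pool, averaged over both pools (horizontal axis, log2), for the 15713 probes with signal (grey bars, number of probes). Red marks are the 11 member probes. Foxa2 and Hnf4a probe 2 lay at the left, whereas Cebpa probe 2 and Hnf4a probe 3 lay in the right tail at the 92.0 and 91.2 percentiles.

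The dye orientation moved with several of these ratios. Over all probes with signal, the orientations of a pool differed by a median of 0.22, averaged over both pools. The median difference between the pools was 0.11. The first is between single arrays and the second between means of 2 arrays, so their sizes cannot be compared directly. In the less-loss pool, 9 of the 11 member probes read higher with GALP in Cy3, beside 39.6% of all probes with signal. In the greater-loss pool it was 5 of 11 beside 41.2%. Foxa2 and Onecut1 were the 2 member probes that read lower with GALP in Cy3 in the less-loss pool. The part of the dye in the single ratios was not tested beyond the averages over both orientations and the values of each orientation.

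Onecut1, which codes for HNF6 and controls glucose metabolism and bile duct genes in liver, was the member with the widest gap between the pools. Its ratios were 0.73 and 0.50 in the greater-loss pool and 0.27 and -0.35 in the less-loss pool. Both arrays of the first pool lay above both arrays of the second, and the second pool had its arrays on opposite sides of 0. The fold was 1.53 in the greater-loss pool and 0.971 in the less-loss pool, a difference of -0.66 on the log2 scale (less minus greater) at the 97.4 percentile of all probes with signal by size. With GALP in Cy5 in the greater-loss pool, the Feature Extraction p-value of Onecut1 was 0.000878. That was the only value under 0.01 among the 56 values of the member probes, and the share over all probes was not counted. On the dye-swapped array of the same pool the Feature Extraction p-value of Onecut1 was 0.0214. The processed signal was between 215 and 438 in the GALP channel and between 193 and 275 in the control channel. The mean was 0.29 ± 0.46, with a standard error of 0.27 and an adjusted p of 0.728 with limma. Each weight loss group is 1 pool, so the difference between the pools has no test.

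Cux2, the female-enriched cut-homeodomain regulator, was not well above background in any of the 8 channels at either of its 2 probes. The processed signals were between 6 and 15 in all channels, and the software set the ratio to 0 on 4 arrays for 1 probe and on 2 arrays for the other. No fold is given for Cux2. Of the other regulators of sex differences in liver on the array, 7 of 7 had signal and 0 were called by the rule. Trim24, a nuclear receptor cofactor, had the highest mean of these at 0.46 ± 0.10. Bcl6, a repressor that is male-enriched in liver, had the lowest at -0.50 ± 0.93, with 0.27 and 0.05 in the greater-loss pool and -0.98 and -1.32 in the less-loss pool. The lists of female-biased and male-biased genes were chosen with earlier results of these data known, so their counts are descriptive. Of 13 female-biased liver genes on the array, 1 was called higher, beside 0.0585% of all probes. The call was at 1 of the 2 probes of Cyp2b13, a cytochrome P450, with a mean of 0.93 at that probe. The brighter probe, which stands for the gene, was not called. It gave 0.31 in the greater-loss pool and 0.70 in the less-loss pool, a mean of 0.51 ± 0.27. Of the 11 female-biased genes with signal, 9 lay above 0 on all 4 arrays, beside 11.4% of all probes with signal. The median of these genes, over the mean of both pools for each gene, was 0.43. Each pool alone had a median of 0.21 (greater-loss) and 0.36 (less-loss), with another gene in the middle. Of 13 male-biased genes, 3 were called lower, beside 0.132% of all probes. These were Hsd3b5 (-3.12 ± 1.93), Slco1a1 (-1.04 and -2.96 in the greater-loss and less-loss pools) and Elovl3 (-1.20 ± 0.44). Slco1a1 was called at 1 of its 2 probes, and the other probe gave -0.51 in the greater-loss pool and -1.80 in the less-loss pool. Of the 13 male-biased genes, all with signal, 6 lay below 0 on all 4 arrays, beside 15.7% of all probes with signal. The median of these 13 genes was -0.28, with -0.16 in the greater-loss pool and -0.59 in the less-loss pool. A steroid dehydrogenase, an organic anion transporter and a fatty acid elongase are the products of Hsd3b5, Slco1a1 and Elovl3.

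**Figure D4:**
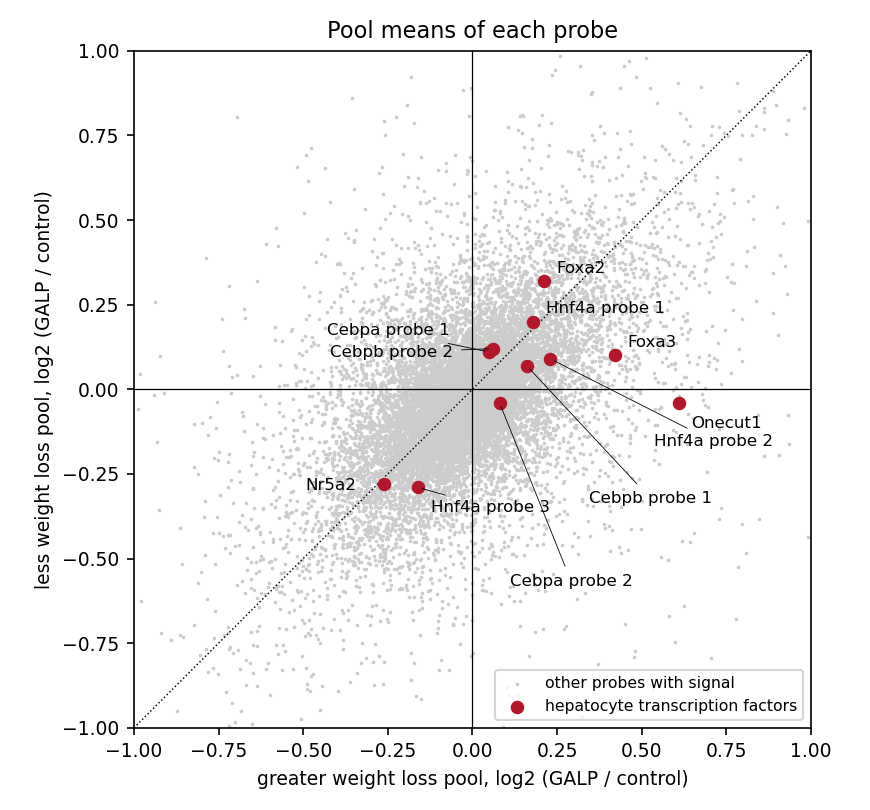
Pool mean log2 ratio of GALP over control in the greater-loss pool (horizontal axis) and in the less-loss pool (vertical axis). Grey points are probes with signal between -1 and 1, red points the 11 member probes, and the dotted line marks equal ratios. Onecut1 lies farthest from the line, at 0.61 and -0.04, and Nr5a2 close to it, at -0.26 and -0.28.

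Over the 7 members with signal, with the brightest probe for each gene, the median ratio was 0.16, with 0.21 in the greater-loss pool and 0.09 in the less-loss pool. The median over all probes with signal was -0.02, and the 5th and 95th percentiles were -0.36 and 0.31, so every member lay within the central range of the array. Ordered by their means, the members were Onecut1 (0.29), Foxa3 (0.26), Foxa2 (0.26), Hnf4a (0.16), Cebpb (0.09), Cebpa (0.02) and Nr5a2 (-0.27). Down to Cebpa, each overlapped within the SDs with its neighbour in the order. Nr5a2 stood below Cebpa by more than the SD of either between the pools. That SD leaves out the spread between the arrays of a pool. The arrays of Cebpa probe 2 ran from -0.45 to 0.37, and those of Nr5a2, from -0.38 to -0.18, lay within this range. The single-gene order compares ratios, not levels. No member reached a mean fold over 1.5 or under 0.75, so no genes were sought for a pattern like that of a member.

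The genes that these factors are known to control were spread over both sides of 0. For comparison with the lists below, 11.4% of all probes with signal lay above and 15.7% below 0 on all 4 arrays. Of 25 other liver transcription factors, 21 had signal and 0 were called, with 7 above and 3 below 0 on all 4 arrays and a median of 0.04 (0.02 in the greater-loss pool and 0.09 in the less-loss pool). The highest was Xbp1, a factor of the secretory pathway, at 0.25 ± 0.18, and the lowest Nr0b2 (SHP), the bile acid induced repressor of Nr5a2 and Hnf4a, at -0.40 ± 0.27. Nr0b2 gave 0.04 and -0.46 in the greater-loss pool and -0.43 and -0.75 in the less-loss pool.

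Of 9 NR5A2 targets, all had signal, 0 were called, 1 lay above and 2 below 0 on all 4 arrays, and the median was 0.00, with 0.05 in the greater-loss pool and -0.08 in the less-loss pool. Cyp7a1, the rate-limiting enzyme of bile acid synthesis, was the highest of these targets and of the HNF4A targets, at 0.55 ± 0.41. Its ratios were 0.76 and 0.92 in the greater-loss pool and 0.28 and 0.24 in the less-loss pool. Cyp7a1 thus lay above 0 on all arrays while Nr5a2 was below 0 on all of them. The 2 NR5A2 targets below 0 on all 4 arrays had the direction of Nr5a2, 1 of them with a value of -0.00 on 1 array. Nr0b2 had the lowest mean of this list, at -0.40 ± 0.27, but was not among them, with 0.04 on 1 array. A link between Nr5a2 and these targets was not tested. Of 14 HNF4A targets, all had signal, 0 were called, 4 lay above and 4 below 0 on all 4 arrays, and the median was 0.00. The lowest was Ugt2b1, a glucuronosyltransferase, at -0.32 ± 0.15.

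Of 8 FOXA targets, 7 were on the array with signal, 0 were called, and the median was 0.05, with 2 above and 1 below 0 on all 4 arrays. They ranged from Tat, the tyrosine aminotransferase, at -0.38 ± 0.26 to Afp, the fetal serum protein, at 0.26 ± 0.10. Of 11 C/EBP targets on the array, 10 had signal, 0 were called, and 4 lay above and 3 below 0 on all 4 arrays. The median of the gene means over both pools was 0.17. Taken alone, the pools had medians of 0.01 (greater-loss) and 0.14 (less-loss). The ends of this list had little spread between the pools: Lcn2, an acute phase lipocalin, was at 0.63 ± 0.06, and G6pc, the last enzyme of glucose release, at -0.41 ± 0.03. The software gave p under 0.01 for Lcn2 on 3 of 4 arrays and for G6pc on 1.

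**Figure D5:**
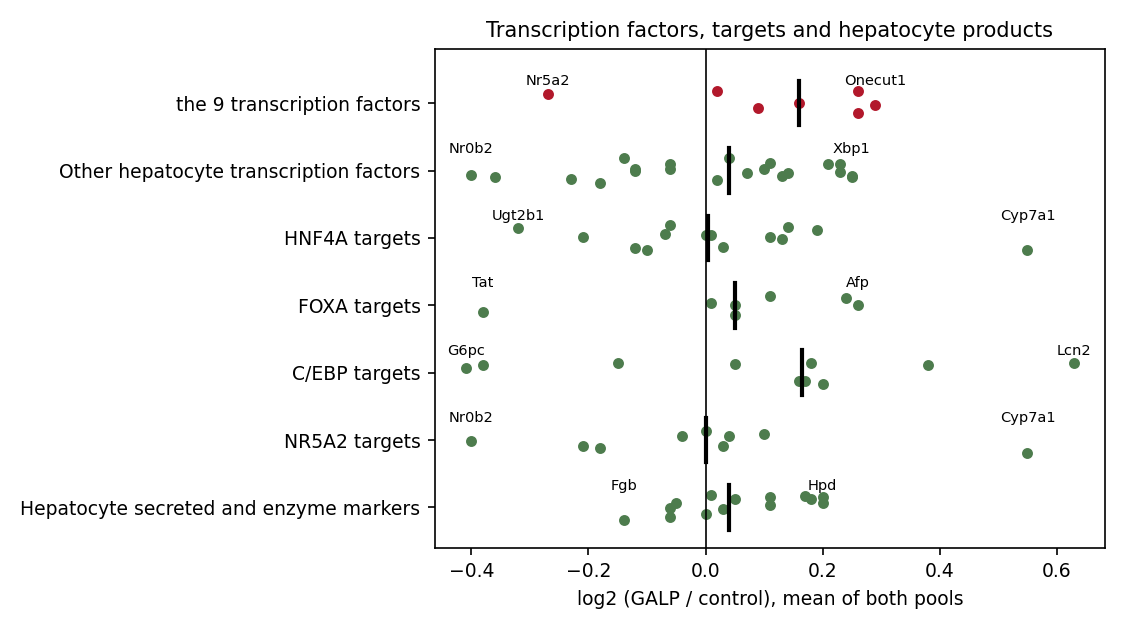
Mean log2 ratio of GALP over control over both pools (horizontal axis) for genes with signal in 7 lists, 1 point per gene at its brightest probe, with list medians as black bars and the highest and lowest gene named. The members are red, with a median of 0.16 and Nr5a2 as the single point below 0. The target lists have medians between 0.00 and 0.17.

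Secreted and enzyme markers of hepatocytes are described beside the transcription factors. Of 14 such genes on the array, all had signal, 0 were called, 5 lay above and 1 below 0 on all 4 arrays, and the median was 0.04, with 0.10 in the greater-loss pool and 0.01 in the less-loss pool. They ranged from Fgb, a fibrinogen chain, at -0.14 ± 0.03 to Hpd, a tyrosine catabolic enzyme, at 0.20 ± 0.10. Their summed processed signal was between 415225 and 588402 in the GALP channel and between 391553 and 556295 in the control channel.

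Pancreas markers differed between the pools by more than any member did. Of 10 pancreas markers on the array, 8 had signal and 1 was at background in every channel, and their median ratio was -3.73 in the greater-loss pool and 0.84 in the less-loss pool. Their summed processed signal was between 7388 and 10454 in the first pool, between 171264 and 177040 in the second and between 94425 and 119402 in the control channels. Several of the 9 factors are also known in pancreas, among them Onecut1, Foxa2, Hnf4a and Nr5a2. In the greater-loss pool, with the lower pancreas signal, and in the less-loss pool, their ratios were 0.61 and -0.04 for Onecut1, 0.21 and 0.32 for Foxa2, 0.23 and 0.09 for Hnf4a probe 2 and -0.26 and -0.28 for Nr5a2. The pancreas markers ranged from Cela3b, an elastase, at -1.57 ± 3.57 to Ins2, an insulin gene, at -0.92 ± 4.38.

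Of 14 stomach and intestine markers, 5 had signal and 6 were at background in every channel, and Gkn2 and Tff1, secreted by the gastric epithelium, were called lower. Gkn2 was not well above background with GALP on any array and was at least 8.51-fold lower, and Tff1 had a mean of -3.63 ± 0.01. The list had a median of -3.63 in the greater-loss pool and -0.19 in the less-loss pool, and its summed signal was between 20414 and 29701 with GALP and between 25589 and 34606 in the control channel. Of 7 bile duct markers, 5 had signal, 2 were at background in every channel and 0 were called, with a median of -0.14 (-0.21 in the greater-loss pool and 0.00 in the less-loss pool), from Tff2 at -1.56 ± 3.16 to Spp1 at 0.10 ± 0.39. Tff2 is also in the stomach and intestine list and gave -3.79 in the greater-loss pool and 0.68 in the less-loss pool. The summed signal of the bile duct list with GALP was between 6238 and 7023 in the greater-loss pool and between 11929 and 14251 in the less-loss pool. In the control channel it was between 8704 and 9980.

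Of 7 Kupffer cell and macrophage markers, all had signal, Marco, a scavenger receptor, was called higher at 0.87 ± 0.25, 4 lay above 0 on all 4 arrays and the median was 0.27. Their summed signal was between 25696 and 31393 with GALP and between 22788 and 25547 in the control channel. Of 7 endothelial markers, Lyve1, a hyaluronan receptor, was called higher at 1 of its 2 probes, with 0.74 ± 0.05 at that probe. The median of these markers was 0.08, with a summed signal of 21819 to 27347 with GALP and 22321 to 31129 in the control channel. Of 8 stellate cell markers, 7 had signal and 0 were called, with a median of 0.19, from Rgs5 at -0.22 ± 0.03 to Col1a1 at 0.66 ± 0.23, and a summed signal of 5112 to 6771 with GALP and 4459 to 5505 in the control channel. The part of these cells and tissues in the ratios of the transcription factors was not tested.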

How the data were processed

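RNA of each pool was labelled with Cy3 and Cy5, hybridised and scanned by the authors. Per the file headers, the processed intensity of each channel was background-subtracted and dye-normalized in Feature Extraction 12.0.3.1, whereas the submitters' processing notes name Agilent Feature Extraction 11.0.1.1. The deposited log10 ratio of a spot is Cy5 over Cy3 and was set to 0 where both channels were at background, and its deposited p-value comes from the software's error model within an array. The same log10 ratios, as GALP over control, make up the deposited table of the series.

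Ratios were expressed as log2 of GALP over control. Between 232 and 319 spots per array carried an outlier mark and were excluded, spots of a probe and then arrays of a pool were averaged, and the pools are the replicates (n = 2). The methods do not say on how many arrays their p-value threshold or the direction of a change must hold, and all 4 were required for both. Pool ratios were tested against 0 with lmFit and eBayes of limma 3.58.1 in R 4.3.3, with Benjamini-Hochberg adjustment over 41037 probes. The control is 1 sample whose spread enters no test, p-values measure only the spread between these pools, and an exact sign permutation of 2 pools cannot go below 0.5. The number of arrays limits the precision. A side not well above background was given as a limit from the lowest signal well above background on each array.

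The members, the 15 other gene lists and the tests were chosen with earlier results of these data known. A gene is represented by its brightest probe. The median of a list is over the gene means of both pools, so it need not lie between the medians of the single pools. Of 157 listed genes, 150 were found on the array, 2 of them through a RefSeq synonym, and 1 further gene planned for a list is not reported here. Named are all member probes and, of each other list, the genes with a called probe or otherwise those with the highest and the lowest mean. Alternatives were other p-value rules, normexp correction (offset 50) with loess, centring, the deposited table, all spots, each dye orientation, each pool, all probes of a gene and other limma fits. The procedures were tested on simulated data. Scripts ran in Python 3.11.15 (matplotlib 3.10.9, numpy 2.4.6, pandas 2.3.3).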

Additional observations from a re-analysis of the deposited data

Results flagged for a closer look

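No transcription factor of the group had both arrays of a pool on one side of 0 and both arrays of the other pool on the opposite side. Among the other genes named, 5 did, and none of these differences was tested, since each weight loss group is 1 pool. The count depends on the naming, and the share of all probes with this pattern was not counted. Ins2 and Cela3b are the ends of the pancreas list, whose median was -3.73 in the greater-loss pool and 0.84 in the less-loss pool. Other genes of that list, not named here, had the pattern too. The difference between the pools, less minus greater weight loss, was -1.31 for Bcl6, 0.55 for Spp1, 4.47 for Tff2, 6.20 for Ins2 and 5.06 for Cela3b on the log2 scale. Bcl6 was the only one of these with a lower ratio in the pool with less weight loss.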

How the results depend on the processing

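No alternative called a probe of the 9 factors, by the rule or by limma. The rule called 78 probes in all, 220 when 1 array per pool had to meet the p-value, 514 without a p-value, 35 after normexp and loess, and between 246 and 284 with a pool left out. Limma called 0 probes (4759 at an unadjusted p under 0.05), 95 after normexp and loess (42 higher, 53 lower), 1 over probes with signal alone, and 193 with the pool as a random block of 4 arrays (77 higher, 116 lower), a fit chosen after seeing the data in which the estimated correlation within a pool was -0.48. The planned block fit with a dye effect could not be fitted on 4 arrays. The smallest adjusted p of a member over the limma alternatives was between 0.0773 and 0.677. Of 63 values of single members under 9 alternatives each, 4 changed sign: Cebpa was -0.31 with GALP in Cy5 only and between -0.04 and 0.08 with a pool left out, Onecut1 was between -0.04 and 0.61 with a pool left out (the lower without the greater-loss pool, for both), and Cebpb was -0.02 with GALP in Cy5 only. Foxa2 stayed between 0.21 and 0.32, Nr5a2 between -0.35 and -0.19, Foxa3 between 0.09 and 0.44 and Hnf4a between 0.04 and 0.23. Centring used the median of probes with signal, at most 0.0708 from 0. No paired analysis was possible because the replicate numbers in the labels mark the dye orientations of the same extracts. Signal limits Foxa1 and Cux2, at background on every array, and Hnf4a probe 3.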
